A study of Homo sapiens with 172 samples.

Results

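This report compares single KBM7 cells that had much of their genome at the nuclear lamina with cells that had little of it there. The cells were chosen by the measured contact itself. All 84 cells were ranked by the percent of covered 100 kb bins with an observed over expected ratio of at least 1, called in contact. The 28 highest cells, here the high cells, were set against the 28 lowest, the low cells, and the 28 cells between them, the middle cells, served to define classes of regions. Because the same ratios chose the cells, what follows is a description of these cells, and no test was made between the sets.

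The nuclear lamina is a meshwork of lamins under the inner nuclear membrane, and LaminB1 is one of its main proteins. Large, gene-poor, mostly silent stretches of chromosomes lie against it as lamina-associated domains, and gene-rich active chromatin lies mainly inside the nucleus. In a single cell only some of these domains are at the lamina at a time. DamID maps such contacts with a Dam methyltransferase fused to LaminB1, which methylates the adenine of GATC in DNA that comes close.

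KBM7 is an established near-haploid human leukaemia line. Every cell was of the haploid clone 5-5 and carried the Dam-LaminB1 fusion, which was induced with 0.5 nM Shield1 for 15 hours before sorting. Cells were sorted singly from the smallest 2% that carried the pair of Fucci cell cycle markers, so high and low cells share genotype, treatment, time and gate. With 1 clone and no separate cultures named, spreads below are over cells.

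Of 172 labelled samples, 168 had a column in the table, and 26414 of 30376 bins were covered, on 22 chromosomes in hg19 coordinates. Chromosome 8 carried no value, and chromosomes 9 and 22 stand as the joined pair 9:22 and 22:9. Chromosome 15 had 510 covered bins, against 879 on chromosome 14 and 959 on chromosome 13. Its values rest on part of the chromosome, while its gene density below is that of the whole. All 168 columns matched best the column numbered 86 away, so each such pair was averaged as the same cell. Recovered reads, taken from the deeper of the columns of each cell, spanned 7134 to 418937 over high and low cells. Some cells stood apart. Chromosomes with under 5% of the reads expected were found in cell 69 of the high set (2, 7, 10, 12, 20 and 21), and in the low set in cell 79 (5, 7, 9:22, 12, 13, 15 and 20), cell 63 (17 and 21) and cell 27 (21). Cell 48, a high cell, and cell 54, a low cell, had reads spread widely over the genome.

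High cells had 35.2% ± 3.01 of bins in contact (SD, n = 28), from 31.3% over a median of 34.4% to 42.4%. Low cells had 20.6% ± 3.11 (SD, n = 28), from 14.5% over 21.4% to 24.6%. Middle cells lay at 27.5% ± 1.83. High cells thus had 14.6 percentage points more of the covered bins in contact, or 1.71 times as many, a gap fixed by the ranking. The highest cells were 74 with 42.4%, 48 with 39.3% and 75 with 39.2%, and the lowest were 53 with 15.7%, 57 with 14.9% and 19 with 14.5%. The limits fell within a continuous range. Cell 72, the last high cell, had 31.3% and its neighbour cell 60 had 30.7%, while cell 1 just above the low set had 24.62% and cell 80 just inside it 24.60%.

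The control for depth moved with the choice. Bins with any ratio above 0 made up 65.4% ± 12.3 of the genome in high cells, with a range of 50.2 to 96.9%, and 33.8% ± 10.3 in low cells, with a range of 14.5 to 49.5%. No low cell reached the lowest high cell. Over the 84 cells the contact share correlated with the share of bins above 0 at Pearson r = 0.88 and Spearman rho = 0.90, and with the logarithm of the reads at r = 0.77. Both shares come from the same bins of a library, so these are descriptions only. Recovered reads ran from 34709 over a median of 197434 to 418937 in high cells and from 7134 over 30082 to 136041 in low cells. In 15 of 28 high cells they exceeded the deepest low cell, and in the other 13 they overlapped the low cells.

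**Figure D1:**
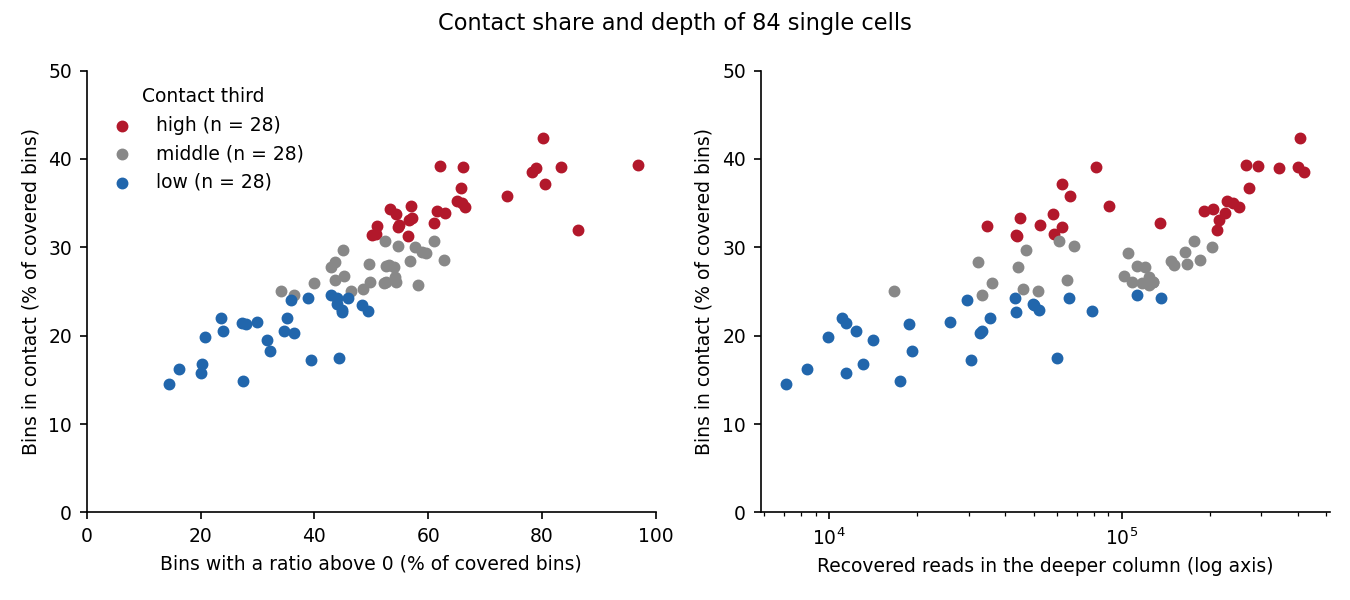
Contact share of each of 84 cells (vertical axis, percent of covered bins in contact) against the percent of bins with a ratio above 0 (left) and against recovered reads on a log axis (right); each point is a cell, coloured by set. High and low cells do not overlap in the share of bins above 0 (50.2 to 96.9% against 14.5 to 49.5%) but do overlap in reads between 34709 and 136041.

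A ratio of 1 stood for very different read numbers. In a median bin of the deeper column it took 8.03 reads in the median high cell and 1.37 in the median low cell. In 12 low cells and no high cell it took under 1 read, so that a single read could make a contact. Contact was called on the mean of the paired columns, so not every read did. On average 80.1% of the bins above 0 were in contact in those 12 cells, and 54.8% in the other 16 low cells. In cell 19 the share of bins in contact and the share above 0 were both 14.5%. Those 12 cells had 18.4% ± 2.71 of bins in contact, and the other 16 low cells 22.2% ± 2.31. Absent contacts and contacts missed for want of reads cannot be told apart in such cells.

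With equal numbers of reads a smaller gap was left. The deeper column of each cell was thinned at random to 30000 reads, which kept 28 high cells and 14 of the low cells. Contact share was then 30.2% ± 1.57 in high cells and 22.4% ± 1.37 in low cells, with ranges of 27.7 to 34.4% and 19.6 to 24.3% that did not overlap. The gap was 7.74 points. Bins above 0 still differed, at 44.5% ± 5.11 and 34.4% ± 2.86, so reads were matched and the share of bins above 0 was not. The same columns of these cells had 35.2% and 23.8% before thinning. Among the 37 cells with 50000 to 200000 reads, the 12 highest had 33.7% ± 2.60 in contact and the 12 lowest 24.0% ± 2.39. Of these 12 highest 10 belonged to the high cells, and of the 12 lowest 7 belonged to the low cells. The 12 highest were the shallower ones, with a median of 64547 reads against 93591. Bins above 0 were at 60.7% and 48.6%. Values given below for this range of reads compare these 12 highest and 12 lowest cells. At 30000 reads the rank of the cells was mostly kept (rho = 0.97 over 69 cells), and the thinned share still correlated with the original reads at r = 0.50.

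Low cells had fewer contacts at higher ratios. Of the contacts of a low cell 34.8% ± 6.37 had a ratio of 4 or more, against 7.53% ± 4.95 in high cells and 23.1% ± 4.44 in middle cells. The median ratio of a contact was 2.87 in low and 2.08 in high cells. The mean ratio over all bins was nearly the same, at 0.91 ± 0.052 in low and 0.93 ± 0.021 in high cells. Observed over expected ratios are scaled to the reads of each column, so this mean is nearly fixed in advance. A cell with fewer bins above 0 then has higher ratios in those bins by construction. Ratios of 8 or more filled 2.20% of bins in low cells and 0.080% in high cells. The part of depth in these ratios was not tested.

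To see which regions made up the difference, bins were classed by their contact frequency in the middle cells, which belong to neither set. In bins that 50 to 60% of middle cells had in contact, high cells had 71.2% in contact and low cells 39.4%. In bins at 60 to 70% the values were 77.0 and 45.2%, and in bins at 20 to 30% they were 37.6 and 18.9%. The difference was widest in the classes from 50 to 70%, at 31.8 points in both. As a quotient it was 1.05 under 5%, 1.80 at 5 to 20% and widest at 20 to 30%, with 1.99, from where it narrowed to 1.58 at 80% or more. Bins at 20 to under 80% were in contact in 66.4% of cases in high and 37.6% in low cells, a difference of 28.8 points with a pooled SD of 7.80 over cells. Of the added contacts, 18.2% lay in bins at 50 to 60%, 24.6% in bins at 60 to 70% and 18.0% in bins at 70 to 80%, while the 10609 bins under 5% held 0.51%.

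In the bins that almost every middle cell contacted, high cells were not above them. At a frequency of 80% or more, high cells had 83.6% ± 10.7 in contact, middle cells 84.4% and low cells 52.8% ± 12.6. Those bins were chosen as high in the middle cells, which pushes the middle value up. The mean ratio there was 2.25 ± 0.34 in high cells and 2.57 ± 0.41 in low cells, so low cells had fewer of these bins in contact at a mean ratio that was no lower. Low cells had any read in 72.4% of these bins, and high cells in 98.0%.

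**Figure D2:**
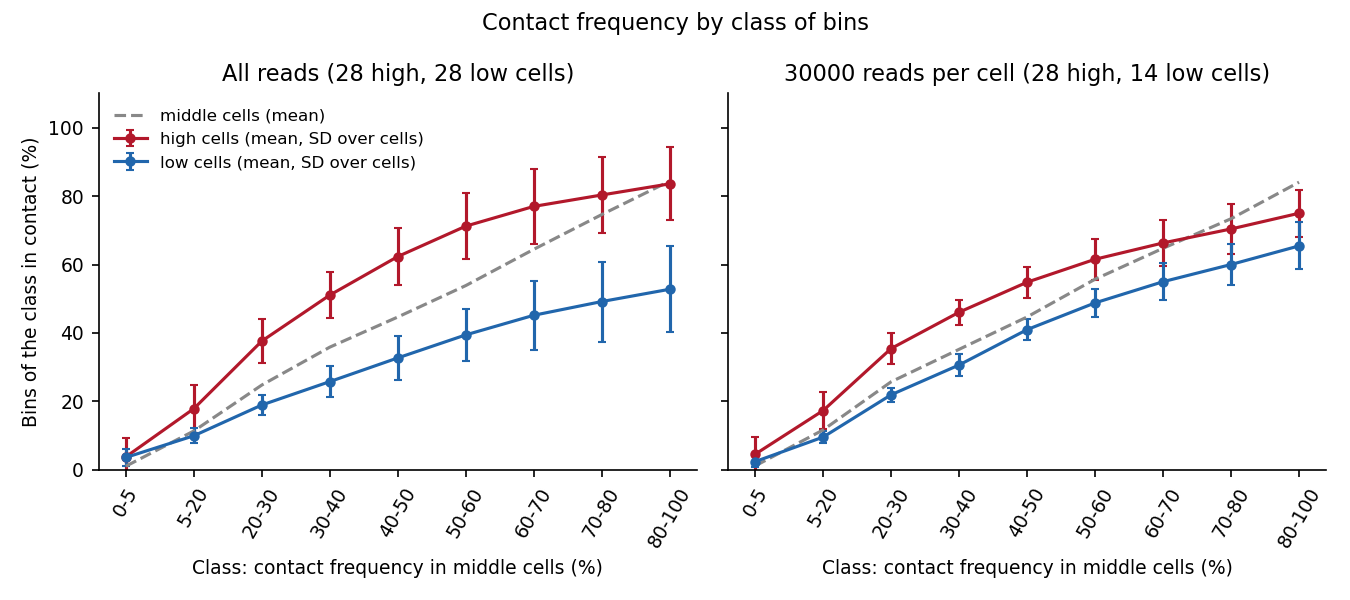
Percent of bins in contact (vertical axis) in classes of bins set by their contact frequency in middle cells (horizontal axis), with all reads (left) and with 30000 reads per cell (right); points are means and bars SD over high (red) and low (blue) cells, dashed lines are middle cells. With all reads the sets meet in the lowest class (3.78 and 3.60%) and lie farthest apart from 50 to 70%; with 30000 reads they lie closer in every class from 5% upwards.

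Thinning changed this profile. With 30000 reads in each cell and classes made from thinned middle cells, the difference was widest at 30 to 40%, with 46.1% in high and 30.6% in low cells, or 15.4 points. It was 9.54 points at 80% or more, where high cells had 75.0% and low cells 65.4%. Bins under 5% now held 11.0% of the added contacts, or 7.01% without cell 48. In the cells of 50000 to 200000 reads the widest difference was 20.7 points, at 50 to 60%.

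Background was read from the 10609 bins in contact in under 5% of the middle cells. High cells had 3.78% ± 5.51 of them in contact and low cells 3.60% ± 2.51, which differ by less than the spread over cells. The share of these bins with any signal was 35.1% ± 21.5 in high and 8.62% ± 4.17 in low cells, and 21 of 28 high cells exceeded every low cell. Of the rarely contacted bins with signal, 10.8% passed the ratio of 1 in high cells and 41.7% in low cells. Their mean ratio was 0.16 ± 0.15 in high cells, with a median of 0.11 and a range of 0.051 to 0.75, and 0.13 ± 0.13 in low cells, with a median of 0.099 and a range of 0.026 to 0.73. The highest values belonged to cell 48 (0.75) and cell 54 (0.73). Without them the means were 0.14 ± 0.093 and 0.11 ± 0.051 (n = 27 each), and contact in these bins 2.90% ± 3.00 and 3.24% ± 1.70. The order of the sets in these bins thus depended on cell 48, and it also reversed, to 3.69% against 3.80%, without cells 63, 69 and 79.

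At 30000 reads the means in rarely contacted bins lay further apart, still within the spread over cells. High cells had 4.55% of them in contact and low cells 2.40%, in bins classed on thinned middle cells, a difference of 2.15 points against a pooled SD of 4.27. Without cell 48 high cells had 3.74% ± 2.77 and the difference was 1.34 points. The mean ratio in these bins was 0.17 in high and 0.096 in low cells, and 0.15 in high cells without cell 48.

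Domains were defined as at least 5 adjacent bins, each in contact in at least 50% of middle cells. There were 473, holding 6871 bins, with a median length of 1.1 Mb and a longest of 7.1 Mb. Inside them high cells had 77.9% ± 10.8 of bins in contact and low cells 46.5% ± 10.5. Within 300 kb outside a border the values were 44.7% ± 6.10 and 23.7% ± 4.15, and more than 1 Mb outside they were 15.3% ± 4.46 and 9.00% ± 1.96. Domains held 56.1% of the added contacts, and the 300 kb around them a further 12.3%.

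Contact stepped up at the border in both sets. From the last bin outside to the first bin inside, contact went from 51.3 to 74.1% in high cells and from 27.0 to 41.6% in low cells. The quotient of high over low was 1.90 in the last bin outside, 1.78 in the first bin inside and 1.62 in the tenth bin inside. High cells were more often in contact up to 1 Mb outside a border, at 26.1% against 14.4% in the tenth bin. At 30000 reads the difference was 10.9 points in the last bin outside, 12.1 in the first bin inside and 7.91 in the tenth inside.

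**Figure D3:**
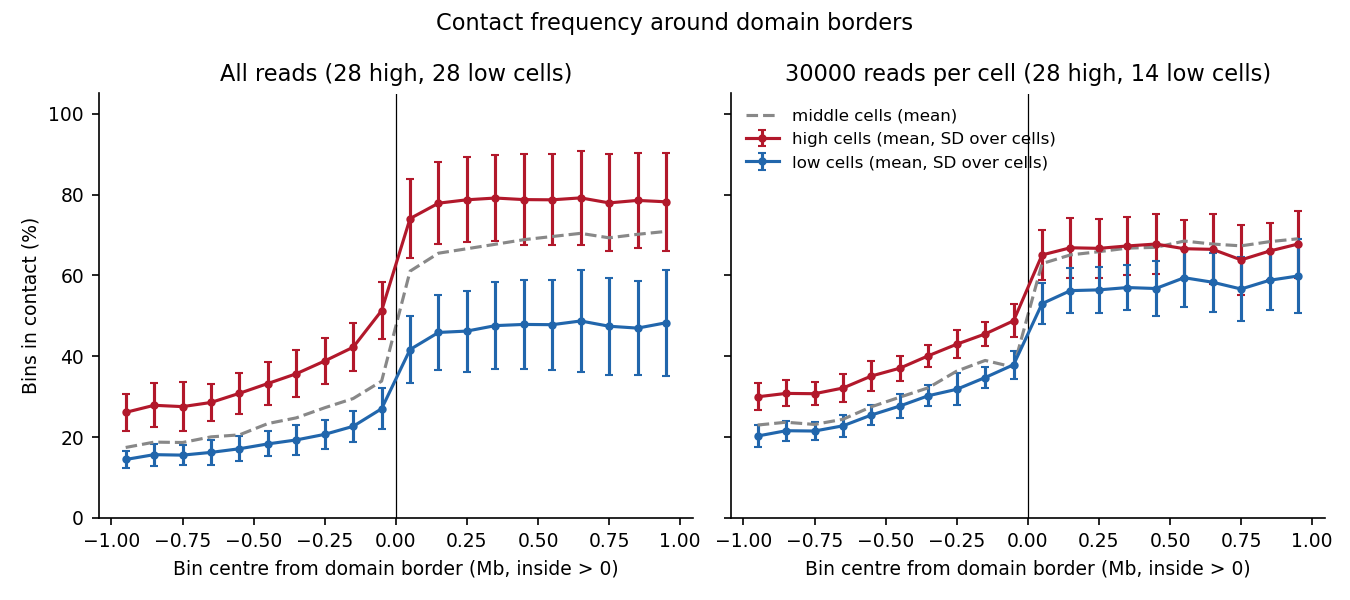
Percent of bins in contact (vertical axis) by distance of the bin centre from the nearest domain border in Mb (horizontal axis, positive inside), with all reads (left) and 30000 reads per cell (right); points are means and bars SD over high (red) and low (blue) cells, dashed lines are middle cells. High cells lie above low cells at every distance, with 51.3 against 27.0% in the last bin outside and 74.1 against 41.6% in the first bin inside.

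Domains were filled differently. In a high cell 63.3% ± 20.1 of the domains had at least 80% of their bins in contact and 4.05% ± 5.01 had none. In a low cell 20.9% ± 11.8 were filled to that extent, 10.9% ± 6.05 had none, and 68.2% lay between. Low cells thus still touched most domains with some bin. At 30000 reads the filled share was 33.9% ± 10.0 in high cells (n = 28) and 25.7% ± 5.62 in the low cells kept (n = 14). That gap was within the spread over cells, and 3.29% ± 4.11 and 6.39% ± 3.45 of domains had no bin in contact. Middle cells then had 35.0% ± 5.93 filled, no less than high cells. Domains were defined on the middle cells, which pushes the middle value up.

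Runs of adjacent bins in contact were longer in high cells. Their mean length was 4.77 ± 1.68 bins in high cells, with a range of 2.05 to 7.77, and 2.51 ± 0.87 bins in low cells, with a range of 1.38 to 4.73. In 13 of 28 high cells it exceeded every low cell. The number of runs was close, at 2215 ± 895 in high and 2323 ± 550 in low cells, so the added contacts appeared as longer runs. Runs of 10 bins or more held 46.6% ± 19.4 of contacts in high cells and 22.6% ± 14.0 in low cells. Breaks of 1 or 2 bins between runs numbered 13.8 ± 6.23 per 100 contacts in high cells and 19.5 ± 4.54 in low cells. The longest run of a cell averaged 5.98 Mb and 4.17 Mb, and the longest in either set spanned 9.1 Mb, in cell 75.

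With equal numbers of reads the difference in run length was smaller than the spread over cells. With all reads the 14 low cells that could be thinned had runs of 3.10 ± 0.83 bins, against 4.77 ± 1.68 in high cells. Runs of 10 bins or more held 33.2% ± 10.8 and 46.6% ± 19.4 of their contacts. At 30000 reads runs averaged 2.66 ± 0.39 bins in high cells (n = 28) and 2.60 ± 0.41 in low cells (n = 14). High cells then had more runs, 3088 ± 680 against 2324 ± 343, and a smaller share of contacts in runs of 10 bins or more, 16.4% ± 6.80 against 25.5% ± 6.46. Middle cells (n = 27) had runs of 2.85 ± 0.29 bins and 27.0% ± 4.78 of contacts in such long runs. At equal reads neither value thus rose steadily with contact share. In cells of 50000 to 200000 reads the 12 highest had runs of 4.02 ± 0.94 bins and the 12 lowest 3.64 ± 0.69. Long runs also failed to mark every high cell. Cell 48, with 39.3% in contact, had runs of 2.06 bins, and cell 72, with 12.3% of the rarely contacted bins in contact, had runs of 2.05.

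**Figure D4:**
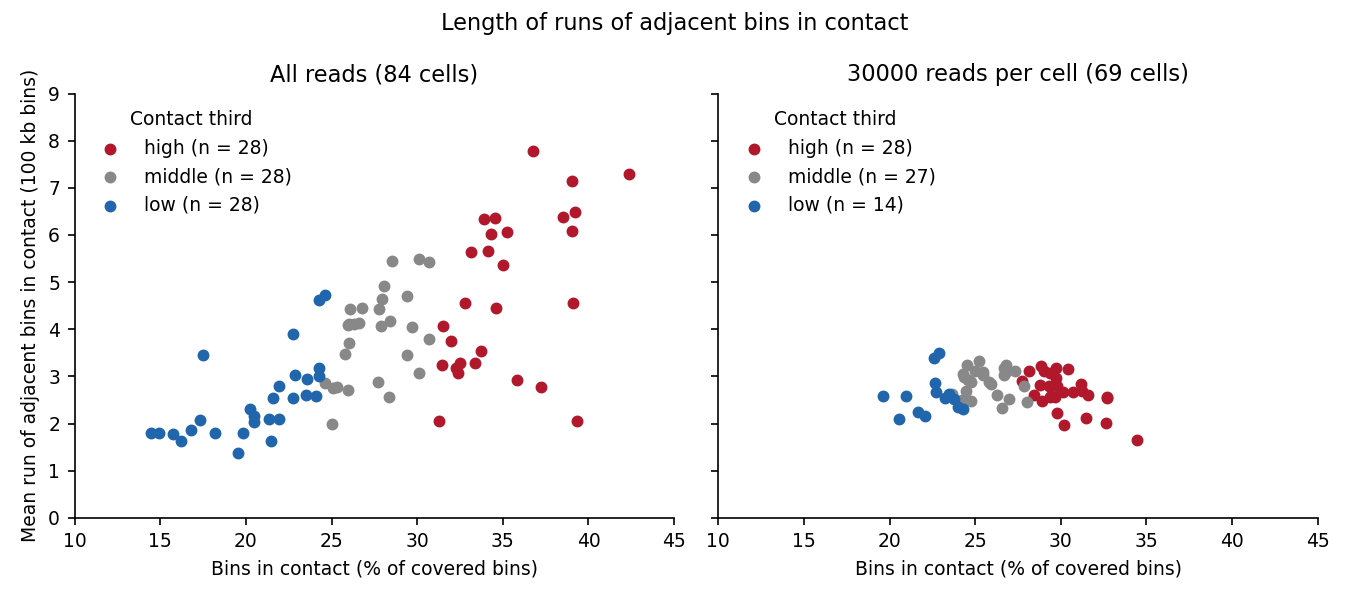
Mean length of runs of adjacent 100 kb bins in contact (vertical axis) against contact share (horizontal axis, percent of covered bins) with all reads (left, 84 cells) and with 30000 reads per cell (right, 69 cells); each point is a cell, coloured by set. With all reads the high and low sets average 4.77 and 2.51 bins, and with 30000 reads, where 14 low cells are left, 2.66 and 2.60 bins.

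Contact was more frequent in high cells on 21 of 22 chromosomes. The widest differences were on chromosome 4, with 48.2% ± 9.84 in high and 26.5% ± 8.56 in low cells, chromosome 5, with 44.8% ± 8.51 and 23.3% ± 10.5, and chromosome 18, a small gene-poor chromosome known to lie near the nuclear edge, with 44.7% ± 7.15 and 24.7% ± 9.20. At 30000 reads the differences were 14.3 points on chromosome 5, 11.2 on 18, 10.9 on 15 and 10.5 on 4. In the cells of 50000 to 200000 reads they were 14.7 on 18, 14.2 on 4, 14.2 on 7 and 9.49 on 5, so the order of the widest chromosomes differed between these settings. With all reads, on chromosomes 4 and 18 27 of 28 high cells, and on chromosome 5 all 28, lay above the median low cell. Chromosome X followed with 46.4% ± 7.15 and 26.9% ± 8.60. Low cells include cell 79, which had almost no reads on chromosomes 5, 7 and 15. With all reads and without cells 63, 69 and 79, the difference on chromosome 5 was 20.4 instead of 21.5 points. Cell 79 was also among the 14 low cells thinned and among the 12 lowest cells of 50000 to 200000 reads. It weighs more in those smaller sets, and their values on chromosomes 5, 7 and 15 are given with it.

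The narrowest differences were on chromosomes 17 and 19 and on 22:9. Chromosome 17 had 10.9% ± 6.82 in high and 6.59% ± 4.31 in low cells, and chromosome 19, known as the most gene-dense, 5.57% ± 5.48 and 4.94% ± 3.40. On 19 only 14 of 28 high cells lay above the median low cell. On 22:9 the order was opposite, with 1.36% ± 1.76 in high and 2.06% ± 1.71 in low cells, a difference within the spread. At 30000 reads the values were 6.35 and 4.71% on chromosome 19 and 1.89 and 1.01% on 22:9, so that high cells were then above low cells on all 22 chromosomes. In the cells of 50000 to 200000 reads they were above on 21, with chromosome 19 at -0.090 points.

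With all reads the quotient of high over low lay between 1.52, on chromosome 10, and 2.05, on chromosome 15, on 20 of the 22 chromosomes, with 1.13 on chromosome 19 and 0.66 on 22:9 as the exceptions. At 30000 reads it ranged more widely over those 20, from 1.11 on chromosome 6 and 1.18 on 9:22 to 1.84 on chromosome 15. Chromosome 19 then stood at 1.35 and 22:9 at 1.88, so over all 22 the range was narrower than with all reads. The difference in points correlated with the frequency in middle cells at r = 0.92 over 22 chromosomes. Over the 20 chromosomes that are not joined, it correlated with coding genes per Mb at r = -0.78, and the middle cells' own contact share did so at -0.79. The coefficient of the difference at 30000 reads was -0.64. These chromosomes share the same cells and libraries, and the coefficients are descriptions.

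**Figure D5:**
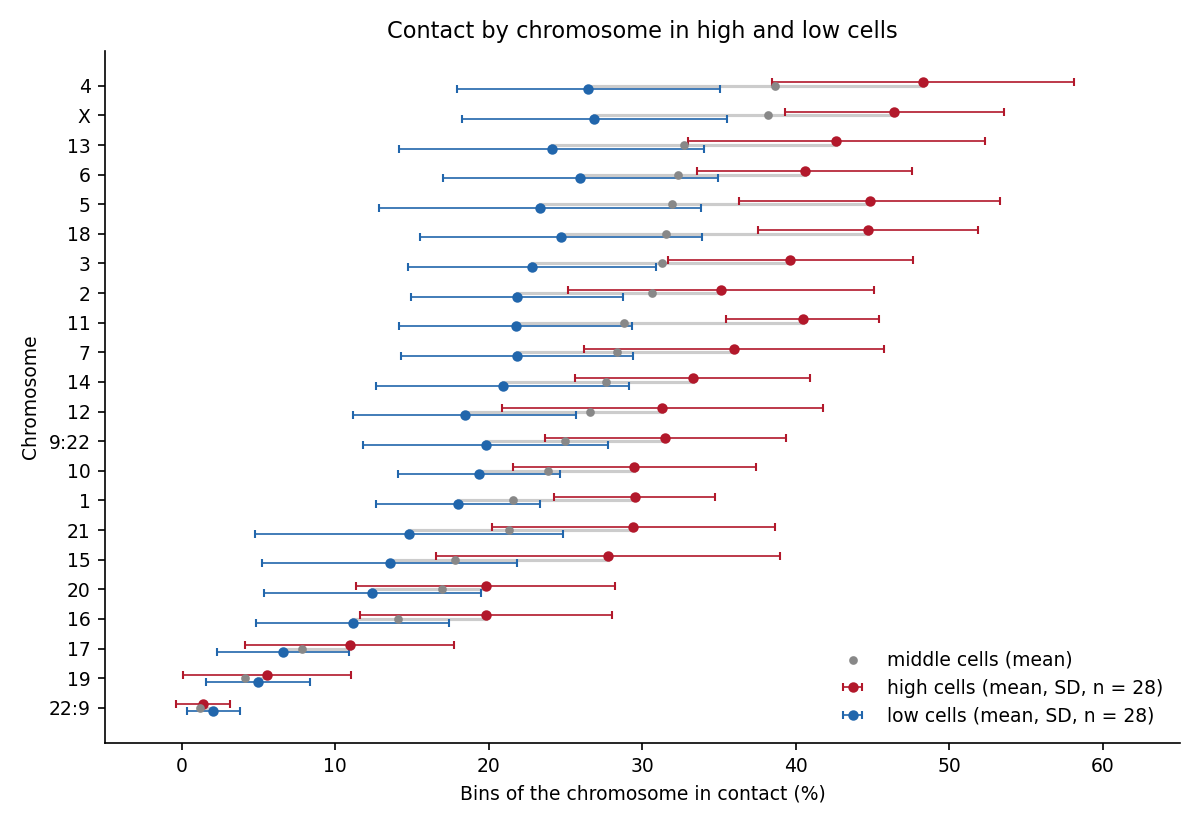
Percent of each chromosome's covered bins in contact (horizontal axis) in high (red) and low (blue) cells, as mean and SD over 28 cells each, with the mean of the middle cells in grey; chromosomes are ordered by the middle cells. High cells lie above low cells on 21 of 22 chromosomes, from 21.8 points on chromosome 4 to 0.63 on chromosome 19, with 22:9 at -0.70.

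Chromosome ends stayed low in both sets. Bins within 2 Mb of an end were in contact in 9.92% ± 2.99 of cases in high and 6.94% ± 2.64 in low cells, and the other bins in 35.9% ± 3.08 and 21.0% ± 3.21. The ends with the widest differences were those that middle cells contacted most: the start of chromosome 3 (76.2% against 47.5%), the start of 9:22 (46.6 against 22.6%), the end of chromosome 1 (44.8 against 26.4%) and the start of chromosome 18 (40.2 against 25.4%).

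Single bins were set apart by at least 25 points in favour of high cells in 8404 of 26414 cases (31.8%), and by at least 10 points in favour of low cells in 468 (1.77%). As the cells were ranked on these bins, the shares describe the ranking. The bins at least 25 points higher in high cells made up 74.3% of the bins at 50 to under 80% in middle cells, 49.6% of those at 20 to under 50%, and 0.18% of those under 5%. By chromosome they made up 49.0% of chromosome 4, 47.6% of chromosome 5 and 43.1% of chromosome 18, but 1.43% of chromosome 19 and none of the 142 bins of 22:9. Of the 468 bins lower in high cells, 336 were under 5% in middle cells and 2 at 50% or more.

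In high cells 33 bins (0.12% of covered bins) were in contact in all 28 cells, and no bin was in contact in all low cells. The cells were ranked on these same calls, so the counts and shares in this paragraph describe the ranking. Depth also limits the low set. In cell 19 only 14.5% of bins were above 0, and no other bin could be held by every low cell. The 33 bins included 10 of the 2227 covered bins of chromosome 1, 7 of 1306 on chromosome 11 and 4 of 1759 on chromosome 5. Chromosomes 3, 6 and X, with 1951, 1678 and 1484 covered bins, held 3 each. High cell 69 had almost no reads on chromosomes 2, 7, 10, 12, 20 and 21. Bins there could hardly be in contact in all 28 high cells, and none of the 33 lay there. Whether any chromosome held more than its size would give was not tested. On chromosome 1 such bins gathered in 2 stretches, with 5 bins from 1:215200001 to 219300000 and 4 from 1:238300001 to 240600000. Low cells had the 33 bins in contact in 35.7 to 78.6% of cells and middle cells in 60.7 to 89.3%. The bin X:113600001 to 113700000 was held by 28 high and 22 low cells, and the bin 5:155500001 to 155600000 by 28 high and 10 low cells. Bins in contact in at least 80% of cells made up 13.0% of covered bins in high cells and 0.015%, or 4 bins, in low cells. Away from the lamina the sets were close, with 18.1% of bins contacted by no high cell and 17.5% by no low cell.

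Windows of 10 adjacent bins gave the regions with the widest differences. The widest was 5:155000001 to 156000000, with 90.0% ± 15.2 of its bins in contact in high cells and 41.1% ± 33.9 in low cells. There 27 high and 12 low cells had at least 50% of the bins, and 4 low cells had none. Next came 1:56000001 to 57000000, with 72.1 against 24.3%, and 15:96000001 to 97000000, with 86.4 against 39.3%. X:147000001 to 148000000 had 83.9 against 37.1%, and 17:69000001 to 70000000, a contacted window on a chromosome of low contact, 74.6 against 27.9%. The others were 5:129000001 to 130000000 (88.2 against 41.8%), 5:161000001 to 162000000 (87.5 against 41.4%) and 3:168000001 to 169000000 (91.1 against 45.0%). All 8 were at 51.1 to 75.7% in middle cells. At 30000 reads their differences ran from 13.9 points, on X, to 36.1 points, at 5:155000001 to 156000000. Low cell 79 had almost no reads on chromosomes 5 and 15. With all reads and without cells 63, 69 and 79, the 8 differences ran from 44.8 to 49.6 points. Among these 8 the widest were then 3:168000001 to 169000000, at 49.6, and X:147000001 to 148000000, at 49.5. The window 5:155000001 to 156000000 stood at 48.1.

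The windows at the other end were rarely contacted in any set. In 1:26000001 to 27000000 high cells had 0.36% of bins in contact and low cells 7.86% ± 14.0, and in 14:101000001 to 102000000 they had 1.43 and 8.57% ± 14.8. The remaining 6 were 1:226000001 to 227000000, 14:75000001 to 76000000, 11:71000001 to 72000000, 2:232000001 to 233000000, 20:61000001 to 62000000 and X:44000001 to 45000000, with differences from -5.36 to -4.64 points. At 30000 reads 1:226000001 to 227000000 stood at 0.71 points and 20:61000001 to 62000000 at 0, and the other 6 of the 8 stayed below 0. In each of the 8, between 15 and 21 of the 28 low cells had no bin in contact. Of all 2611 windows 487 were lower in high cells, and 452 of those were under 5% in middle cells. They made up 92.3% of the windows of 22:9, 56.4% of those of chromosome 19 and 2.70% of those of chromosome 18.

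Windows picked in some of the cells were less extreme in the others. The 8 windows with the widest difference in odd-numbered cells, 57.1 points on average, showed 26.6 points in even-numbered cells, and the 8 at the other end, at -9.60 points, showed 5.85. All windows averaged 14.9 and 14.2 points. Over 2611 windows the differences in odd- and even-numbered cells correlated at r = 0.72. After the mean of windows of like frequency in middle cells was taken off, with 20 groups of windows, the correlation was 0.020, and by chromosome the remainder had the same sign in odd- and even-numbered cells on 12 of 22 chromosomes. Among those positive in both, chromosome 5 stood at 4.52 and 4.06 points and 15 at 4.71 and 2.84. Chromosome 11 stood at 3.82 and 2.66 and 18 at 3.25 and 2.53. Others were negative in both, with chromosome 2 at -1.95 and -3.15 and 10 at -5.14 and -1.38. Chromosome 20 stood at -2.57 and -2.37 and 6 at -2.59 and -1.35. All were named after their values were seen. After thinning, chromosomes 5, 15, 11 and 18 stood at 5.55, 3.77, 0.64 and 2.47 points. Chromosomes 2, 10, 20 and 6 then stood at -2.78, -1.28, 0.081 and -4.67. Whether any chromosome stood apart was not tested. Windows share cells and neighbours, and the coefficients are descriptions. The difference of a window between high and low cells followed its frequency in middle cells (r = 0.89).

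Cells that ranked high on some chromosomes were high on the others. When cells were ranked on odd-numbered chromosomes alone, the 28 highest had 36.1% of the even-numbered chromosomes and X in contact and the 28 lowest 23.1%. When they were ranked on the even-numbered ones and X, the odd-numbered ones had 32.4 and 19.5%. The share of bins above 0 also differed in these rankings, by 29.9 and 30.0 points.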

How the data were processed

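Per the file's name and the labels, the authors deposited ratios of observed over expected reads in 100 kb bins, 1 column per sample, and the submitters' processing notes name cutadapt, Bowtie2 2.1.0 and the build hg19. Neither the handling of duplicates nor the basis of the expected reads is stated in the labels or the file. Bins without a value (3792) or at 0 in every column (170) were left out. Columns n and n + 86 were averaged, in 82 of 84 pairs with a chi-square per bin under 1, where cells 54 and 56 were above it. Reads were recovered from the steps of the ratios: 100% of values above 0 were whole within 0.02, and the step was tested on simulated data. Amplified reads that carry no molecular identifier do not count independent molecules.

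Contact, classes, domains (5 bins at 50%), runs and windows (10 bins, at least 8 covered) were computed with Python 3.11.15, numpy 2.4.6 and pandas 2.3.3. Thinning drew 30000 reads per cell without replacement, and 15 shallower cells were left out. Named windows are the 8 with the widest differences in favour of high cells and the 8 with the widest in favour of low cells. Named chromosomes are the 3 at either end. Further ends, bins and windows were named after their values were seen. Gene densities are coding genes of each chromosome in a GRCh38.p14 table per Mb of that chromosome as tabled. Its coordinates were not set against hg19 bins, so no gene is named. The members and lists were chosen with earlier results of these data known.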

Additional observations from a re-analysis of the deposited data

How the results depend on the processing

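Of 104 values under the 13 alternatives listed with the design, 78 stayed within 1 SD, 20 moved further and 6 changed sign. The SD is that of the main setting, pooled over cells, except for the median over chromosomes, where it is over chromosomes. Thinning the original sets, the same without cell 48, and leaving out cells 63, 69 and 79 were added after seeing the data and gave 24 values, 12 of them within 1 SD. The values that moved follow as high minus low. Contact share, 14.6 points, was 19.8 at a cutoff of 0.5, 6.65 at a cutoff of 2, 19.5 for 14 cells in each set, 7.41 thinned to 30000 reads and ranked again, 7.74 with the original sets thinned, 7.58 the same without cell 48, and 9.70 in cells of 50000 to 200000 reads. In the same order except for the cutoff of 0.5, the share of bins above 0, 31.6 points, was 19.2, 45.0, 10.6, 10.1, 9.47 and 12.0, and intermediate bins, 28.8 points, were at 19.2, 38.9, 11.4, 12.8, 13.3 and 18.0. Bins just outside domains, 21.0 points, were at 27.9 for 14 cells, 10.6, 10.9 and, without cell 48, 11.1 thinned, and 14.8 in the cells of 50000 to 200000 reads. The median over chromosomes, 13.7 points, was 5.78 at a cutoff of 2 and 7.23 thinned without cell 48. It also fell to 7.59 when thinned and ranked again and to 7.69 with the original sets thinned. Those falls counted as within 1 SD only because the SD over chromosomes was 6.19. Run length, 2.26 bins, was 0.78 at a cutoff of 2, 7.13 with 5 bins averaged, 0.38 in the cells of 50000 to 200000 reads, 0.058 with the original sets thinned, 0.095 the same without cell 48, and reversed to -0.068 when thinned and ranked again. Contact in rarely contacted bins, 0.18 points, had no stable sign, with -1.46 at a cutoff of 2, -0.42 for 14 cells, -0.87 when ranked on even-numbered chromosomes and X, -0.57 without cells 48, 54, 56, 63, 69 and 79, and -0.11 without cells 63, 69 and 79. The mean ratio there, 0.033, was -0.082 at a cutoff of 2. Other cutoffs change shares by construction. For the rest the cause was not tested.

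Depth limits these values. At the lowest depths a single read made a contact, and low cells were the shallower ones. No test was made between sets chosen by their own contact, and cells of 1 clone are not replicates.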
